A study of Homo sapiens with 13 samples.

Results

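Transcripts of 9 genes that make and break down polyamines were followed across all 13 libraries of the series. The genes were taken by symbol as members of the pathway, with earlier results of these data known: ODC1, OAZ1, OAZ2, AZIN1, AMD1, SRM, SMS, SAT1 and SMOX. They are 9 of 60591 genes in the deposited table, and all 9 were among the 19514 genes with enough counts to be tested. The polyamines putrescine, spermidine and spermine are small positively charged molecules that bind nucleic acids and are needed for growth. Ornithine decarboxylase (ODC1) makes putrescine, and spermidine synthase (SRM) and spermine synthase (SMS) add aminopropyl groups supplied by S-adenosylmethionine decarboxylase (AMD1). Antizymes (OAZ1, OAZ2) bind ODC1 protein and send it for degradation, and the antizyme inhibitor (AZIN1) counters them. SAT1 acetylates spermidine and spermine for export or oxidation, and SMOX oxidises spermine directly. ODC1 and SAT1 are known as the rate-limiting steps of synthesis and of breakdown, and inhibitors of ODC1 have been studied as anticancer agents.

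The cells were TE11, a human cell line labelled as derived from squamous carcinoma of the oesophagus, grown in DMEM with fetal bovine serum. They received 0.1% DMSO as vehicle (4 libraries), 10 µM chloroquine (3 libraries), 25 µM 5-fluorouracil (5-FU, 3 libraries) or both drugs at those doses (the combination, 3 libraries), each for 48 h. Chloroquine is a weak base that gathers in lysosomes and raises their pH, and 5-FU is a pyrimidine analogue that blocks thymidylate synthase and enters RNA and DNA. All groups came from 1 cell line, and nothing in the labels says that replicates were separate cultures, so the p-values measure only the spread between these libraries, which may be technical. In RNA of whole cultures, fewer cells of a kind and less RNA per cell cannot be told apart.

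Total counts ran from 17834539 to 23679833 per library. A set of 5 libraries (vehicle 4, chloroquine 1 and 2, 5-FU 2 and combination 2) held 153 to 741 counts of COL1A2, a collagen gene of fibroblasts, where the other 8 held 1 to 7. Summed counts of 6 fibroblast markers were 665 to 2529 in those 5 libraries and 202 to 614 in the others, those of 4 leukocyte markers were 22 to 331 and 4 to 18, and those of 4 acinar markers were 7 to 530 and 4 to 11. Among squamous markers, KRT5 and KRT6A were at 0 in all 8 of the other libraries and TP63 had 0 to 3 counts in any library, while SFN had 7 to 74. Among markers of simple epithelia, EPCAM had 27 to 74 counts, CDH1 27 to 57, KRT8 54 to 389 and KRT18 747 to 1361. Of the 3 libraries with 5-FU alone, 5-FU 1 stood furthest from its replicates.

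Levels are CPM, counts brought to a common library total after TMM scaling, which sets the bulk of genes equal between libraries. A gene is said to rise or fall where its edgeR adjusted p over all genes tested was under 0.05. Against vehicle, 6 of the 9 genes fell and 1 rose with chloroquine, and 6 fell and 2 rose with 5-FU. With the combination 5 fell and 1 rose. Over all genes tested, 19.1% fell and 20.3% rose with chloroquine, 29.5% and 30.8% with 5-FU, and 27.2% and 28.1% with the combination. ODC1, OAZ1 and SRM fell with all 3 treatments, and SAT1 rose with all 3, by 1.32-fold with chloroquine, 3.68-fold with 5-FU and 2.40-fold with the combination. AMD1 and AZIN1 fell with 5-FU and with the combination and did not pass the test with chloroquine. SMS fell with each single drug and did not pass the test with the combination. SMOX fell with chloroquine and rose with 5-FU. For 6 of the 9 genes the combination differed from the sum of the changes with the single drugs, where 20.6% of all genes tested differed upward and 19.3% downward. Leaving out each library gave 5 to 8 of the 9, and AZIN1 was the least stable of the 6.

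**Figure D1:**
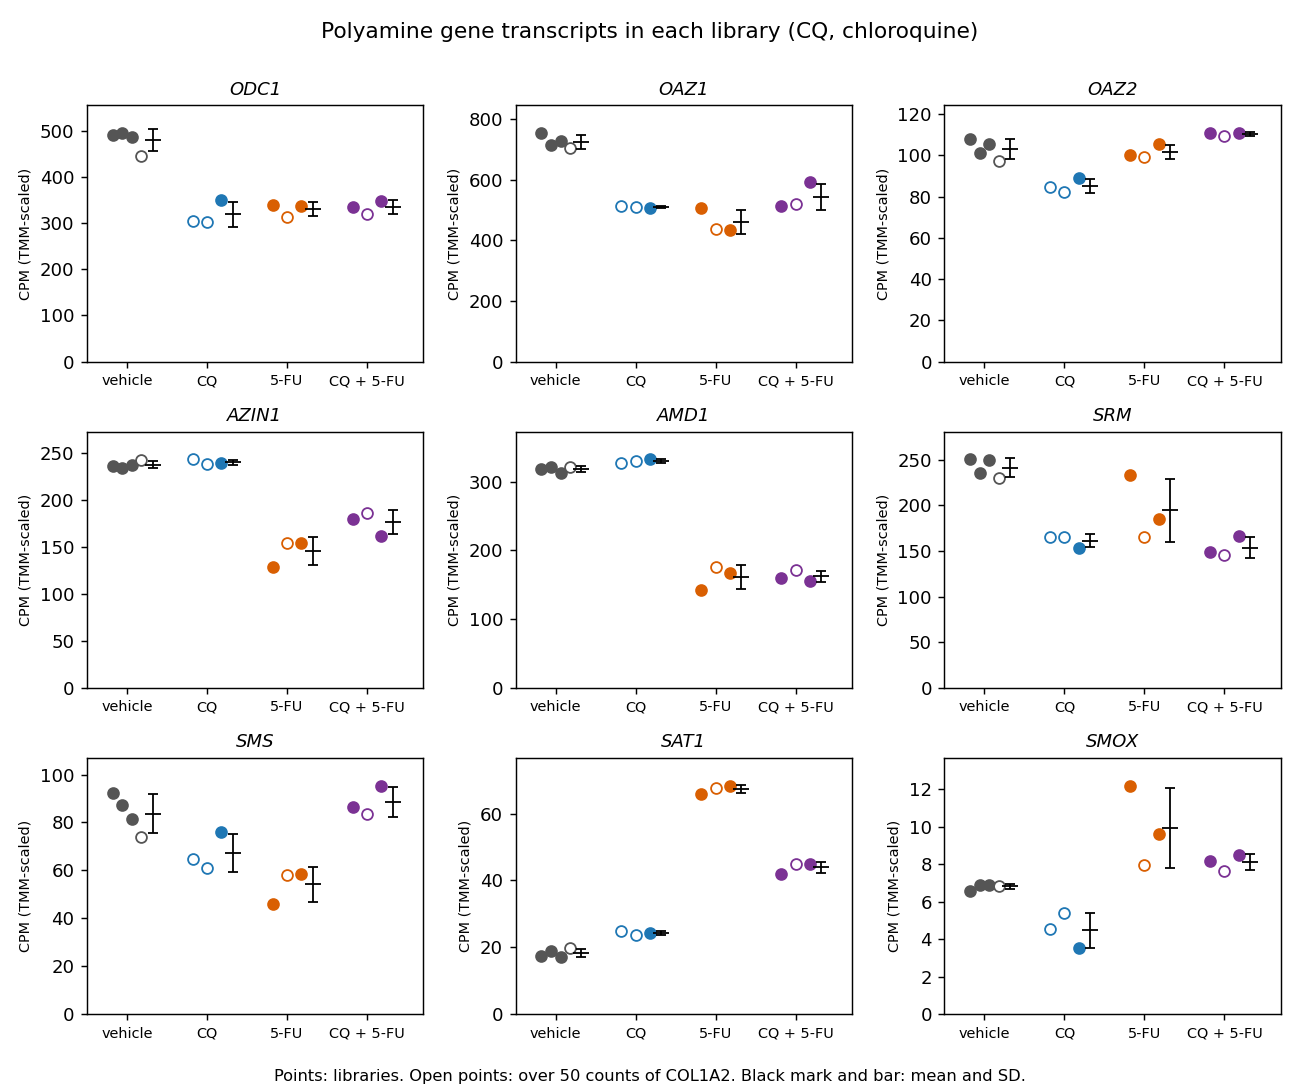
CPM (y axis, starting at 0) of the 9 polyamine genes in each of the 13 libraries, by group (x axis). Points are libraries, open points are the 5 libraries with over 50 counts of COL1A2, and black marks are means with SD. SAT1 rose from 17.1 to 19.8 CPM in vehicle to 66.0 to 68.4 with 5-FU, and AMD1 lay between 142 and 176 CPM with 5-FU against 313 to 321 in vehicle.

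Levels were compared between genes as CPM per kilobase of merged exons, since longer transcripts collect more reads. In vehicle the order was OAZ1 (211 ± 6.35 CPM per kb, SD, n = 4), ODC1 (162 ± 7.97), SRM (127 ± 5.45), AMD1 (45.3 ± 0.583), SMS (38.8 ± 3.69), AZIN1 (37.0 ± 0.571), OAZ2 (13.4 ± 0.634), SAT1 (7.33 ± 0.50) and SMOX (2.31 ± 0.0506). SMS and AZIN1 were the only neighbours in that order whose means differed by less than the SD of SMS. The breakdown genes SAT1 and SMOX were thus the lowest of the 9 in vehicle. With 5-FU, SAT1 reached 27.0 ± 0.492 CPM per kb (SD, n = 3), beside 25.0 ± 3.33 for SMS, 23.0 ± 2.51 for AMD1 and 22.7 ± 2.30 for AZIN1. Those 4 levels lay close together, with SMS within its SD of SAT1. In the combination SAT1 was at 17.6 ± 0.691 CPM per kb, above OAZ2 and SMOX and below the other 6. Merged exons hold the bases of all annotated transcripts of a gene, and the lengths of the transcripts present were not known. The order between genes therefore depends on this divisor. In CPM with 5-FU, SAT1 (67.3) was below AMD1 (162) and AZIN1 (146) and above SMS (54.1). In the combination it was below OAZ2 in CPM, at 43.9 against 110.

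ODC1, the enzyme that commits ornithine to polyamines, fell to a like level with every treatment. Its vehicle libraries held 491, 496, 488 and 445 CPM. With chloroquine it was at 305, 302 and 349 CPM, with 5-FU at 340, 313 and 338 CPM, and with the combination at 335, 319 and 349 CPM. No treated library reached the lowest vehicle library, and the 3 treated groups overlapped. Its log2 fold change against vehicle was -0.59 ± 0.060 (SE) with chloroquine (edgeR adjusted p = 5.19e-06), -0.54 ± 0.060 with 5-FU (adjusted p = 2.66e-06) and -0.52 ± 0.060 with the combination (adjusted p = 4.52e-06). Between the combination and 5-FU the log2 difference was 0.018, with a 95% interval from -0.12 to 0.15 (edgeR adjusted p = 0.867). ODC1 was lower in the libraries with COL1A2 than in the others of their group in all 4 groups, by -0.099 to -0.20 on the log2 scale. Chloroquine had 2 such libraries of 3 and vehicle 1 of 4, and without them the log2 fold change with chloroquine was -0.49 (edgeR adjusted p = 0.000221), with 1 chloroquine library left.

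Sequence upstream of ODC1 is shown because MYC, a transcription factor known to act on ODC1, binds the E-box CACGTG. ODC1 fell with both single drugs. MYC fell with 5-FU and did not pass the test with chloroquine (log2 fold change -0.050, edgeR adjusted p = 0.593). Whether MYC had a part in the change of ODC1 was not tested. The 250 bases before each RefSeq start (GRCh38.p14) were searched for the E-box, for the CCAAT box and for the TATA box (TATAA), all on both strands, and 7 of the 9 genes had an entry, with 10 windows. Of 35116 such windows over all genes, 6.34% held the E-box, 32.0% the CCAAT box and 18.9% the TATA box. Among those 7, the CCAAT box was present for SRM, AMD1, OAZ1, SMS and SAT1. The TATA box was present for AMD1 and for ODC1, before the first of its RefSeq starts. The E-box was present for ODC1, before the second of its RefSeq starts, and for SRM. The stretches around both are given with the E-box in capitals, at -29 and -199 from the start; they are on the minus strand, at chr2:10448013-10448068 and chr1:11060185-11060244.
ODC1: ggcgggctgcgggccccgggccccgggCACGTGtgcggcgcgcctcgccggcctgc
SRM: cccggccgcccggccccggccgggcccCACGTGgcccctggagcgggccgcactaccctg

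OAZ1, the main antizyme, whose protein is made through a ribosomal frameshift that polyamines promote, fell together with ODC1. Its vehicle libraries held 755, 714, 727 and 705 CPM. It was at 513, 511 and 507 CPM with chloroquine, at 508, 438 and 436 CPM with 5-FU, and at 514, 521 and 594 CPM with the combination. Every treated library was below every vehicle library. The log2 fold change was -0.51 ± 0.060 (SE) with chloroquine (edgeR adjusted p = 1.79e-05), -0.65 ± 0.060 with 5-FU (adjusted p = 3.92e-07) and -0.42 ± 0.060 with the combination (adjusted p = 3.63e-05). OAZ1 was higher in the combination than with 5-FU, by 0.24 ± 0.064 on the log2 scale (edgeR adjusted p = 0.00888). That call was lost when replicate numbers were a block in those 6 libraries (0.22, adjusted p = 0.0519), and without 5-FU 3 (0.20, adjusted p = 0.0516) or combination 3 (0.17, adjusted p = 0.0548). OAZ1 overlaps JSRP1 on the opposite strand and AC005258.1 on its own strand, so its counts are uncertain to the extent that reads of these genes were shared with it. The same holds for ODC1, which overlaps SNORA80B on its own strand. OAZ2 and AZIN1 overlap other genes on the opposite strand, AZIN1-AS1 among those of AZIN1.

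OAZ2, a second antizyme of similar action, fell with chloroquine and did not pass the test with 5-FU or the combination. Its vehicle libraries held 108, 101, 106 and 97.1 CPM, those with chloroquine 84.6, 82.1 and 88.8 CPM, those with 5-FU 100, 99.0 and 106 CPM, and those of the combination 111, 109 and 111 CPM. The chloroquine libraries lay below all others, and the combination libraries above all others. With chloroquine it fell by 0.27 ± 0.051 (SE) on the log2 scale (edgeR adjusted p = 0.000689). Without the 5 libraries with COL1A2 the value was -0.24 (adjusted p = 0.0557). Against vehicle it did not pass with 5-FU (-0.019 ± 0.050, edgeR adjusted p = 0.772) or with the combination (0.10 ± 0.050, adjusted p = 0.104). With libraries scaled by total count alone, in place of TMM, both values were positive and passed, at 0.17 and 0.25. OAZ2 was higher in the combination than with chloroquine by 0.37 ± 0.054 (edgeR adjusted p = 4.66e-05).

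AZIN1, a homologue of ODC1 without its catalytic activity that binds antizyme in its place, fell where 5-FU was present. It was at 236, 234, 237 and 243 CPM in vehicle and at 244, 238 and 239 CPM with chloroquine, ranges that overlapped. With 5-FU it was at 129, 155 and 155 CPM, and with the combination at 180, 186 and 162 CPM. The 5-FU libraries lay below those of the combination, and both below vehicle. The log2 fold change was 0.017 ± 0.063 (SE) with chloroquine (edgeR adjusted p = 0.862), -0.70 ± 0.064 with 5-FU (adjusted p = 3.78e-07) and -0.43 ± 0.064 with the combination (adjusted p = 4.80e-05). The combination stood above 5-FU by 0.27 ± 0.068 (edgeR adjusted p = 0.00602). In a fit of those 2 groups alone this value was 0.25 (adjusted p = 0.0647).

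AMD1, which makes the aminopropyl donor for both synthases, was the synthesis gene that fell furthest with 5-FU. Vehicle libraries held 319, 321, 313 and 321 CPM, and chloroquine libraries 327, 330 and 333 CPM. With 5-FU it was at 142, 176 and 167 CPM, and with the combination at 160, 172 and 156 CPM. The highest of the 6 libraries with 5-FU (176 CPM) was far below the lowest of the 7 without it (313 CPM). AMD1 fell with 5-FU by 0.98 ± 0.062 (SE) on the log2 scale, a fall of 49.3% (edgeR adjusted p = 1.07e-08), and with the combination by 0.97 ± 0.062 (adjusted p = 1.45e-08). With chloroquine the log2 fold change was 0.050 ± 0.060 (edgeR adjusted p = 0.553). Between combination and 5-FU it was 0.0077 ± 0.066, with a 95% interval from -0.13 to 0.15 (edgeR adjusted p = 0.949). The related pseudogenes AMD1P3 and AMD1P2 held at most 31 and 23 counts.

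SRM, which makes spermidine, fell with all 3 treatments, least with 5-FU. Its vehicle libraries held 250.7, 235, 249.7 and 230.1 CPM. It was at 165, 166 and 153 CPM with chloroquine and at 149, 146 and 167 CPM with the combination, all below vehicle. With 5-FU the libraries spread from 165 and 185 CPM to 233 CPM in 5-FU 1, which lay within the vehicle range. The log2 fold change was -0.58 ± 0.092 (SE) with chloroquine (edgeR adjusted p = 0.000208), -0.31 ± 0.091 with 5-FU (adjusted p = 0.00864) and -0.65 ± 0.092 with the combination (adjusted p = 3.27e-05). The 5-FU value was -0.12 (adjusted p = 0.251) with total-count scaling and -0.46 without 5-FU 1. SRM was lower in the combination than with 5-FU by 0.34 ± 0.098 on the log2 scale (edgeR adjusted p = 0.0133), and without 5-FU 1 the value was -0.19 (adjusted p = 0.0462). That call was lost without combination 2 (-0.30, adjusted p = 0.0529) and in a fit of the 2 groups alone (-0.35, adjusted p = 0.0588).

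SMS, which turns spermidine into spermine, fell with each drug alone and did not pass the test when both were given. Vehicle libraries held 92.3, 87.4, 81.3 and 73.8 CPM. It was at 64.8, 60.9 and 76.1 CPM with chloroquine, at 45.8, 58.2 and 58.3 CPM with 5-FU, and at 86.5, 83.7 and 95.4 CPM with the combination. The combination libraries overlapped those of vehicle and lay above all 6 with a single drug. The log2 fold change was -0.63 ± 0.10 (SE) with 5-FU (edgeR adjusted p = 9.74e-05) and 0.081 ± 0.099 with the combination (adjusted p = 0.517). With chloroquine it was -0.32 ± 0.10 (edgeR adjusted p = 0.0226), with chloroquine 3 above vehicle 4. This last call was lost with total-count scaling (-0.22), without the libraries with COL1A2 (-0.19), and without any 1 of vehicle 1 (-0.27), vehicle 2 (-0.30), chloroquine 1 (-0.29) or chloroquine 2 (-0.25). The combination exceeded 5-FU by 0.71 ± 0.11 (edgeR adjusted p = 0.000149) and chloroquine by 0.40 ± 0.11 (adjusted p = 0.00639). The difference from chloroquine was 0.26 (adjusted p = 0.118) without the libraries with COL1A2.

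SAT1, the acetyltransferase that starts polyamine breakdown, had the largest change of the 9 genes with 5-FU and with the combination, though not with chloroquine. The libraries held 17.5, 18.9, 17.1 and 19.8 CPM in vehicle and 24.8, 23.7 and 24.2 CPM with chloroquine. They held 66.0, 67.5 and 68.4 CPM with 5-FU and 41.9, 44.8 and 45.0 CPM with the combination. The 4 groups did not overlap, and their order was vehicle, chloroquine, combination, 5-FU. SAT1 rose by 0.40 ± 0.061 (SE) on the log2 scale with chloroquine (edgeR adjusted p = 0.000134), by 1.88 ± 0.057 with 5-FU (adjusted p = 1.14e-11) and by 1.26 ± 0.058 with the combination (adjusted p = 5.64e-10). Its log2 fold change with 5-FU was at percentile 97.2 of the genes tested. SAT1 was lower in the combination than with 5-FU by 0.62 ± 0.058 (edgeR adjusted p = 2.60e-06). No alternative setting changed the direction or call of any SAT1 value.

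The 250 bases before the RefSeq start of SAT1 (GRCh38.p14, plus strand, chrX:23782923-23783172) are given because this gene had the largest change with 5-FU. Capitals mark matches to the CCAAT box on either strand, at -79 and -13 from the start. The window held no E-box and no TATA box as spelled above.
SAT1: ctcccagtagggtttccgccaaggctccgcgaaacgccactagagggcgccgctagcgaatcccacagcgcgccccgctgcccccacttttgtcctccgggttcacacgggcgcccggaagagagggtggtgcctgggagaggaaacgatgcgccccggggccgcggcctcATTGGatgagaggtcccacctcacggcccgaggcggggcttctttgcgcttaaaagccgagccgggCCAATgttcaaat

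SMOX, the spermine oxidase that releases hydrogen peroxide, was the lowest of the genes, with 62 to 252 counts per library. It was at 6.6, 6.90, 6.91 and 6.86 CPM in vehicle, and at 4.54, 5.38 and 3.50 CPM with chloroquine. It was at 12.2, 7.95 and 9.61 CPM with 5-FU, and at 8.18, 7.64 and 8.49 CPM with the combination. The chloroquine libraries lay below vehicle, and all 6 libraries with 5-FU above it. SMOX fell with chloroquine by 0.60 ± 0.15 (SE) on the log2 scale (edgeR adjusted p = 0.00599) and rose with 5-FU by 0.54 ± 0.14 (adjusted p = 0.00365), a 1.45-fold rise. The combination value, 0.25 ± 0.14, did not pass (edgeR adjusted p = 0.149), although it passed with total-count scaling (0.40, adjusted p = 0.0239) and in a fit of those 2 groups alone (0.26, adjusted p = 0.0146). The chloroquine value was -0.96 without the libraries with COL1A2, which left 1 chloroquine library. SMOX was higher in the combination than with chloroquine by 0.85 ± 0.16 (edgeR adjusted p = 0.000408).

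**Figure D2:**
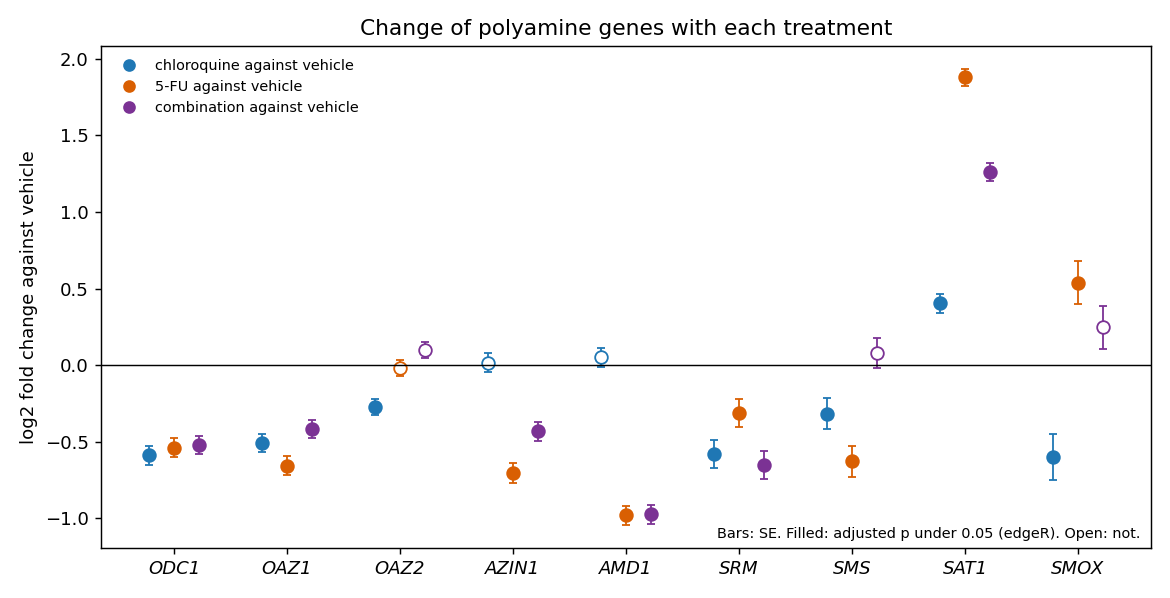
Log2 fold change against vehicle (y axis) of the 9 polyamine genes (x axis) with chloroquine, 5-FU and the combination. Bars are SE, and filled points passed an edgeR adjusted p of 0.05. ODC1, OAZ1 and SRM are below 0 with all 3 treatments, SAT1 is above 0 with all 3 (0.40, 1.88 and 1.26), and SMOX is below 0 with chloroquine and above 0 with 5-FU.

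Set against all genes tested, falls were more frequent among the 9 than rises. With chloroquine 1 of 9 rose and 6 fell, where 20.3% of all genes tested rose and 19.1% fell. With 5-FU 2 rose and 6 fell, where 30.8% of all genes rose and 29.5% fell. With the combination 1 rose and 5 fell, where 28.1% of all genes rose and 27.2% fell. The median log2 fold change of the 9 genes was -0.32, -0.54 and -0.42 in these comparisons, beside 0.023, 0.010 and 0.0057 over all genes tested. The share of falls among the 9 was above the background in each comparison, and that of rises below it. The 9 genes were chosen with earlier results of these data known, so these shares are a description. With total-count scaling, which moved the all-gene median by 0.096, 0.19 and 0.15, the splits of rises to falls were 1 to 5, 3 to 5 and 3 to 5 for the 9 genes. Over all genes they were 5435 to 2410, 8291 to 3669 and 7422 to 3659, in place of 3952 to 3730, 6003 to 5756 and 5489 to 5312.

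Adding chloroquine to 5-FU raised OAZ1, AZIN1 and SMS and lowered SAT1 and SRM. Thus 3 of 9 were higher and 2 lower in the combination than with 5-FU, where 20.2% of all genes tested were higher and 18.3% lower. In a fit of those 2 groups alone 2 of the 9 passed, SMS (higher) and SAT1 (lower). These counts are from the main model, which ignores replicate numbers. With a replicate block in those 2 groups alone, OAZ1 did not pass (0.22, edgeR adjusted p = 0.0519). Adding 5-FU to chloroquine raised OAZ2, SMS, SAT1 and SMOX and lowered AZIN1 and AMD1. Here 4 of 9 were higher and 2 lower than with chloroquine, where 24.8% of all genes were higher and 25.7% lower. In both comparisons the share of lower genes was near the background and that of higher genes above it. With 9 genes these differences rest on few genes, and whether they exceed chance was not tested. The log2 difference from chloroquine was -1.02 ± 0.066 (SE) for AMD1 (edgeR adjusted p = 2.73e-08), 0.86 ± 0.061 for SAT1 (adjusted p = 6.85e-08) and -0.45 ± 0.068 for AZIN1 (adjusted p = 7.41e-05). ODC1, OAZ1 and SRM did not pass, at 0.069, 0.089 and -0.069.

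The interaction term compared the effect of chloroquine with and without 5-FU, as log2 values. It was positive and passed for 5 genes and was negative and passed for 1, where 20.6% of all genes tested were positive and 19.3% negative. SMS had the largest positive value, 1.03 ± 0.15 (SE, edgeR adjusted p = 0.000102). Its single-drug changes summed to -0.94 and the combination measured 0.081. For OAZ1 the interaction was 0.74 ± 0.088 (edgeR adjusted p = 1.97e-05), with a sum of -1.16 and a measured -0.42. For ODC1 it was 0.61 ± 0.087 (adjusted p = 0.000101), with a sum of -1.13 and a measured -0.52. OAZ2 followed with 0.39 ± 0.074 (edgeR adjusted p = 0.000772). For these genes the combination lay nearer to vehicle than the single-drug changes add up to.

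SAT1 had the negative interaction, -1.02 ± 0.084 (SE, edgeR adjusted p = 9.59e-07). Its single-drug changes summed to 2.28, and the combination measured 1.26. AMD1 was close to the sum, at -0.97 against -0.93, with an interaction of -0.043 ± 0.089 (edgeR adjusted p = 0.750). AZIN1 passed narrowly at 0.25 ± 0.093 (edgeR adjusted p = 0.0421). That call was lost under 12 of 20 alternatives, among them a replicate block (0.24, adjusted p = 0.0722), and without any 1 of the 4 vehicle or 3 chloroquine libraries, combination 1 or combination 2 (0.22 to 0.26). SRM (0.24, edgeR adjusted p = 0.168) and SMOX (0.31, adjusted p = 0.269) did not pass, although both did without 5-FU 1, at 0.40 and 0.49. With total-count scaling the all-gene split of positive to negative interactions was 2379 to 5063, in place of 4019 to 3772, and that of the 9 genes was 4 to 1.

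**Figure D3:**
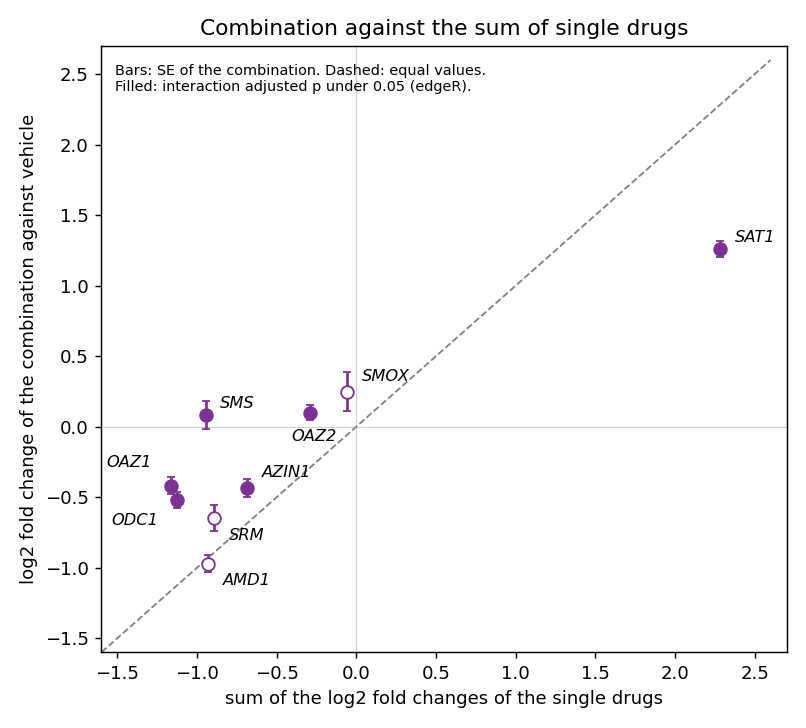
Log2 fold change of the combination against vehicle (y axis) set against the sum of the log2 fold changes of the single drugs (x axis) for the 9 polyamine genes. Bars are SE of the combination, the dashed line marks equal values, and filled points passed the interaction test. AMD1 lies on the line, SAT1 lies below it (1.26 against 2.28), and SMS lies furthest above it (0.081 against -0.94).

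Ratios of counts within 1 library do not depend on how libraries are scaled, and they are given as a description. The ratio of SAT1 to ODC1 counts was 0.0383 ± 0.00434 (SD, n = 4) in vehicle, 0.0763 ± 0.00618 with chloroquine, 0.204 ± 0.0112 with 5-FU and 0.131 ± 0.00797 with the combination (n = 3 each). The 4 groups did not overlap, and the mean with 5-FU was 5.33 times the vehicle mean. AZIN1 to OAZ1, inhibitor to antizyme, was 0.328 ± 0.0129 in vehicle and 0.471 ± 0.00420 with chloroquine, without overlap. It was 0.321 ± 0.0575 with 5-FU and 0.327 ± 0.0472 with the combination, both overlapping vehicle.

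OAZ2 to OAZ1 rose from 0.142 ± 0.00326 (SD) in vehicle to 0.167 ± 0.00749 with chloroquine, 0.222 ± 0.0228 with 5-FU and 0.204 ± 0.0153 with the combination. Every treated library exceeded every vehicle library. OAZ1, the denominator, fell with all 3 treatments, while OAZ2 fell with chloroquine and did not pass the test with 5-FU or the combination. SMS to SRM, the spermine and spermidine synthases, was 0.347 ± 0.0271 in vehicle and 0.576 ± 0.00374 with the combination. All 3 combination libraries exceeded the other 10. The ratio of ODC1 to its antizyme OAZ1 stayed between 0.588 and 0.777 in all 13 libraries. Each treated group overlapped vehicle, and the 5-FU libraries (0.670 to 0.777) lay above those of the combination (0.588 to 0.652).

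**Figure D4:**
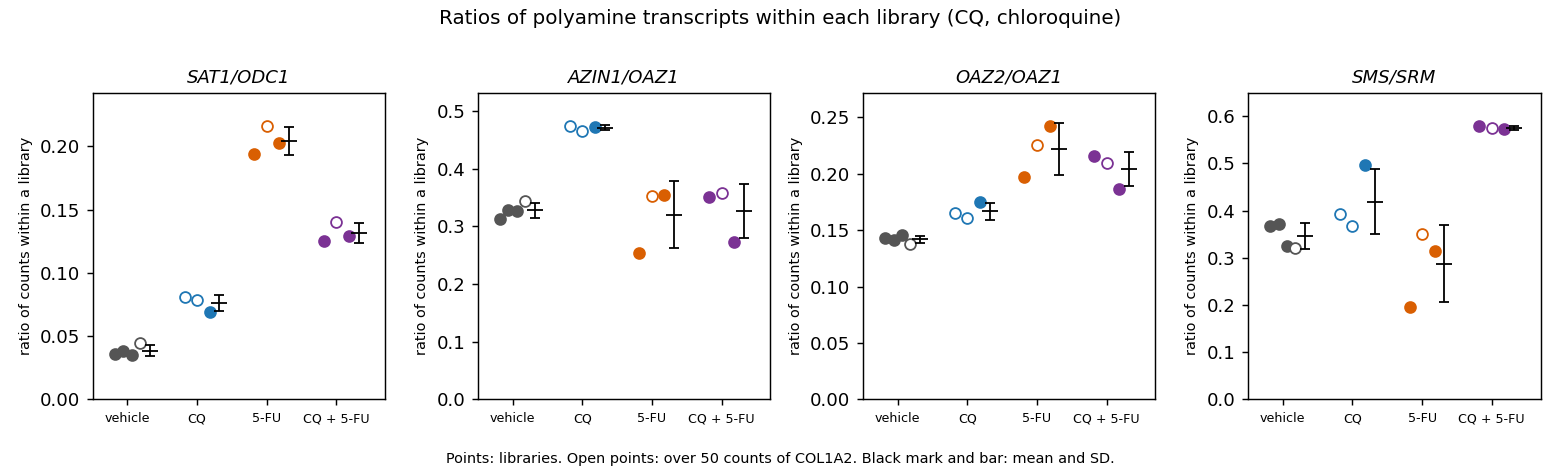
Ratio of the counts of gene pairs within each library (y axes, starting at 0) by group (x axes) for SAT1/ODC1, AZIN1/OAZ1, OAZ2/OAZ1 and SMS/SRM. Points are libraries, open points are those with over 50 counts of COL1A2, and black marks are means with SD. SAT1/ODC1 is highest with 5-FU (0.194 to 0.216), and SMS/SRM is highest in the combination (0.573 to 0.580).

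A further 33 genes of polyamine supply, transport and use were listed, and 31 had enough counts to be tested, ARG1 and ATP13A4 being too low. Of the 31, 4 rose and 12 fell with chloroquine, 8 rose and 15 fell with 5-FU, and 7 rose and 14 fell with the combination. The shares over all genes tested were 20.3% up and 19.1% down with chloroquine, 30.8% and 29.5% with 5-FU, and 28.1% and 27.2% with the combination. The rises of this list were thus below the background and the falls above it. Their median log2 fold changes were -0.084, -0.23 and -0.15. Without chloroquine 1 alone, 10 of the 31 passed with chloroquine. Leaving out each library, 6020 to 8714 of all genes tested passed in that comparison. Removing the libraries with COL1A2 left 1 chloroquine library. The chloroquine rises in that setting were 0.57 for OAZ3, 0.23 for SLC3A2, 0.21 for ATP13A3 and 0.23 for SLC7A1, and their calls were lost.

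Among paralogues of the 9 genes and further breakdown enzymes, 4 of 5 rose and none fell with 5-FU, where 30.8% of all genes tested rose and 29.5% fell. AZIN2, a second antizyme inhibitor, rose by 1.00 ± 0.14 (SE) on the log2 scale with 5-FU (edgeR adjusted p = 2.56e-05) and by 1.05 ± 0.14 with the combination (adjusted p = 1.91e-05), opposite to AZIN1. OAZ3, an antizyme known from testis, rose by 0.51 with chloroquine, 1.17 with 5-FU and 1.6 with the combination, from 2.27 ± 0.393 CPM (SD) in vehicle to 6.90 ± 0.424 CPM. Its chloroquine call was lost without chloroquine 1 (0.47) or chloroquine 3 (0.43). SAT2, a relative of SAT1, rose by 0.54 with 5-FU and by 0.35 with the combination. SATL1 rose by 1.01 with 5-FU and was near 1 CPM. PAOX, which oxidises acetylated polyamines, had 4 to 23 counts per library, and its falls with chloroquine (-1.31) and the combination (-1.03) were lost under several alternatives.

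Of 6 genes of ornithine and arginine supply, 4 fell and 1 rose with 5-FU, where 29.5% of all genes tested fell and 30.8% rose. The mitochondrial ornithine carrier SLC25A15 fell by 1.10 ± 0.071 (SE) on the log2 scale with 5-FU (edgeR adjusted p = 1.29e-08) and by 0.95 with the combination. The cationic amino acid transporter SLC7A1 rose by 0.31 with chloroquine and fell by 0.82 with 5-FU and by 0.56 with the combination. ALDH18A1 and OAT, also among these 6 genes, fell by 0.60 and 0.54 with 5-FU. In the list of S-adenosylmethionine supply and methionine salvage, 6 of 7 fell with chloroquine and 4 of 7 with 5-FU, where 19.1% and 29.5% of all genes tested fell. The chloroquine calls of MAT2A (-0.14) and MRI1 (-0.32) were lost under several alternatives, MAT2A without any 1 of vehicle 2, 3 or 4 or chloroquine 1 or 3 (-0.13 to -0.14) and MRI1 without chloroquine 1 (-0.26) or 2 (-0.28). MAT2A, which makes S-adenosylmethionine, fell by 0.52 with 5-FU and by 0.90 ± 0.047 with the combination (edgeR adjusted p = 1.76e-09). MTAP, which clears the by-product of both synthases, fell by 0.71 with 5-FU. MRI1 fell by 0.80 with the combination, and APIP by 0.68 with chloroquine, both in methionine salvage.

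Of 6 polyamine transport genes, 3 fell and 1 rose with 5-FU, where 29.5% of all genes tested fell and 30.8% rose. SLC18B1, a vesicular polyamine transporter, fell from 44.2 ± 3.04 CPM (SD) in vehicle to 12 ± 0.202 CPM with 5-FU, by 1.88 ± 0.079 (SE) on the log2 scale (edgeR adjusted p = 1.98e-10), and by 1.48 with the combination. ATP13A2, the lysosomal polyamine exporter, fell by 0.70 with 5-FU and by 1.23 ± 0.11 with the combination (edgeR adjusted p = 2.77e-07), and its interaction was -0.69 (adjusted p = 0.00231). ATP13A3, a related transporter, rose by 0.26 with chloroquine, and fell by 0.86 with 5-FU and by 0.35 with the combination. SLC3A2, the heavy chain of several amino acid transporters, rose with all 3 treatments, by 0.24, 0.76 and 0.52. Its chloroquine call was lost without vehicle 4 (0.22) or any 1 of the chloroquine libraries (0.22 to 0.25).

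Hypusination is the use of spermidine to modify the translation factor EIF5A. EIF5A fell with all 3 treatments, from 454 ± 55.9 CPM (SD) in vehicle to 284 ± 17.8 with chloroquine, 179 ± 16.8 with 5-FU and 210 ± 13.1 CPM with the combination. Its log2 fold changes were -0.68 ± 0.092 (SE), -1.34 ± 0.094 and -1.11 ± 0.093. DHPS, which carries out the first step, was at 3.66 ± 0.305 CPM (SD) in vehicle and 7.39 ± 0.911 CPM with 5-FU. It rose by 1.01 with 5-FU, and was lower in the combination than with 5-FU by 1.16 ± 0.13 on the log2 scale (edgeR adjusted p = 1.09e-05). DOHH, which completes the modification, rose by 0.43 with the combination, a call lost without combination 3 (0.31, edgeR adjusted p = 0.0936). The transcription factor MYC was at 75.3 to 77.7 CPM in vehicle, 70.0 to 77 with chloroquine, 13 to 16.0 with 5-FU and 15.3 to 18.3 with the combination. MYC fell by 2.42 ± 0.076 (SE) on the log2 scale with 5-FU (edgeR adjusted p = 1.34e-11) and by 2.19 ± 0.075 with the combination (adjusted p = 3.79e-11). Whether MYC had a part in the changes of ODC1 or SRM was not tested.

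**Figure D5:**
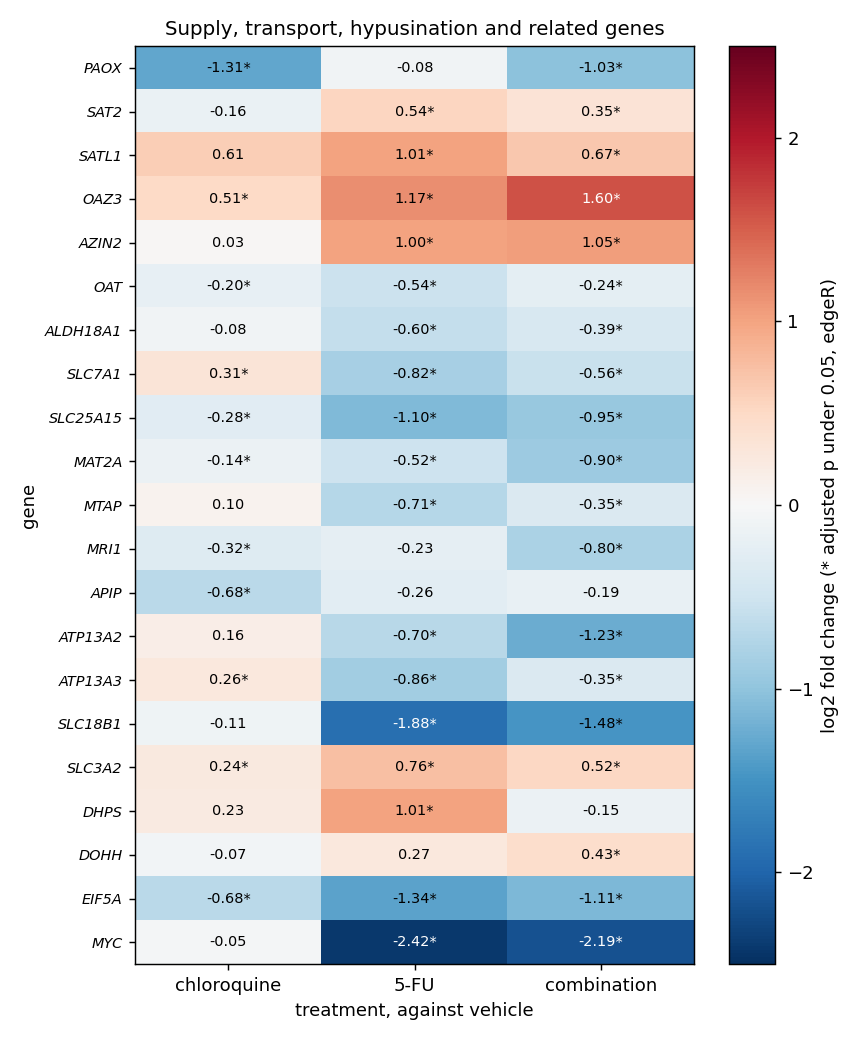
Log2 fold change against vehicle (colour and printed value) of the 21 further pathway genes that passed an edgeR adjusted p of 0.05 with an absolute log2 fold change of 0.5 or more in at least 1 of the 5 pairwise comparisons (rows), for each treatment (columns). Asterisks mark an adjusted p under 0.05. SLC18B1, EIF5A and MYC are the darkest falls with 5-FU (-1.88, -1.34 and -2.42), and OAZ3 the darkest rise with the combination (1.6).

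Across the 13 libraries, the genes most like ODC1 in log2 CPM among 13223 genes of sufficient level were RCC1 (Pearson r = 0.982), SSRP1 (0.981), ATPAF1 (0.979), APEX1 (0.972) and CCT5 (0.972). Those most like SAT1 were GADD45B (0.99), SUPT7L (0.988), APOE (0.986), KANSL1 (0.986) and ZNF608 (0.986). The libraries share 4 group means, so any genes with a like order of groups score high. Among the 9 genes, AZIN1 and AMD1 were most alike (r = 0.948), then ODC1 and OAZ1 (0.908). SAT1 ran opposite to AZIN1 (r = -0.943) and AMD1 (r = -0.919).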

How the data were processed

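RNA of 13 TE11 libraries was sequenced after a directional library kit, per the labels' protocols. The deposited file, made by the authors, gives raw counts: whole numbers of reads for each gene (human symbols) in each library. The submitters' processing notes name DESeq, without version or role, and as build GRCm38, which is of the mouse. The aligner, counter, annotation and strand setting were not given in the sources used here. Coordinates are therefore printed only for RefSeq promoter windows. Groups and replicate numbers came from the labels, and every column matched 1 library. Counts of every replicate pair differed by more than sampling noise (chi-square per degree of freedom 1.61 to 22.0), so each library counted once.

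Genes were filtered with filterByExpr of edgeR 4.0.16 (R 4.3.3), which kept 19514 genes and at least 99.84% of each library's counts. After TMM scaling, 1 quasi-likelihood model with group means was fitted to all 13 libraries. In 6 comparisons a gene passed where its p, adjusted by Benjamini-Hochberg over every gene tested, was under 0.05. The procedure was tested on simulated data. CPM are TMM-scaled, and intervals are 95%. Exon lengths came from GENCODE on GRCh38. Alternatives were RLE factors, total-count scaling, DESeq2 1.42.0, no filter, only the groups compared, a replicate block, a term for or removal of the libraries with over 50 counts of COL1A2, and leaving out each library.

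The 9 genes and all lists were chosen with earlier results of these data known. All 9 are named. Of the further lists, genes are named that passed with a log2 fold change of 0.5 or more in size in a pairwise comparison, and for ODC1 and SAT1 the 5 genes of highest correlation. Replicate numbers are shared by all groups in the labels. Deviations from group means correlated between same-numbered libraries of 5-FU and the combination at 0.341, 0.743 and 0.339. The main model had no block and treated these libraries as unpaired, and a replicate block was fitted to them only as an alternative. In the other group pairs at least 1 correlation was negative.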

Additional observations from a re-analysis of the deposited data

Results flagged for a closer look

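ODC1 was lowest in vehicle 4, at 444.65 CPM, further from its nearest vehicle library than the 4 libraries' spread allows at the 95% level (gap over range 0.844, above Dixon's critical value). SMOX was lowest in vehicle 1, at 6.595 CPM, by the same measure (0.843), although its vehicle libraries spanned a narrow range. With 9 such groups looked at, chance marks about 1 in 20. Vehicle 4 is the vehicle library with COL1A2, and the part of that in the ODC1 value was not tested.

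The effect of chloroquine on the log2 scale differed with and without 5-FU, by the interaction test of edgeR, for 6 genes. The difference was 0.61 for ODC1, 0.74 for OAZ1, 0.39 for OAZ2, 0.25 for AZIN1, 1.03 for SMS and -1.02 for SAT1.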

How the results depend on the processing

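Of 54 values (9 genes in 6 comparisons), 34 kept direction and call under all their alternatives. Of 1134 alternatives, 28 lost a call, 7 gained one in the same direction and 16 reversed a direction. All 16 were in values that had not passed the test, and the cause was not tested. Among them, OAZ2 with 5-FU passed after its reversal with total-count scaling (edgeR adjusted p = 0.00542). With chloroquine, AZIN1 was -0.00080 with RLE factors, -0.00081 with DESeq2 and -0.014 with a COL1A2 term. With 5-FU, OAZ2 was 0.17 with total-count scaling and 0.0049 without vehicle 1 (-0.049 to 0.0049 leaving out each library). Between combination and 5-FU, ODC1 was -0.026 with total-count scaling, -0.023 without 5-FU 2 and -0.016 without combination 3 (up to 0.048 without combination 2). AMD1 there was -0.036 with total-count scaling, -0.0081 with only those groups, -0.0035 with a replicate block in them, -0.079 without 5-FU 1 and -0.036 without combination 2 (up to 0.071 without 5-FU 2). Between combination and chloroquine without the libraries with COL1A2, ODC1 was -0.031 and SRM 0.046. The AMD1 interaction was 0.035 without 5-FU 2 and -0.12 without 5-FU 1.

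Without the libraries with COL1A2, 4348 genes passed with chloroquine, against 7682, from fewer samples. With only the groups compared, 2 polyamine genes passed between combination and 5-FU, against 5. Leaving out each library, polyamine genes called numbered 6 to 7 with chloroquine, 8 with 5-FU, 6 with the combination, 4 to 6 for combination against 5-FU, 6 against chloroquine and 5 to 8 for the interaction. All genes called numbered 6020 to 8714, 10740 to 11766, 9594 to 11488, 6137 to 7868, 8536 to 10610 and 6748 to 8232. SMOX passed between combination and 5-FU without 5-FU 2 (-0.43) and without the libraries with COL1A2 (-0.38).

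With a replicate block in all libraries, 7, 8, 6, 5, 6 and 5 polyamine genes passed, and of their calls the block ended that of the AZIN1 interaction. A block fitted only to the 6 libraries of 5-FU and the combination left 4 polyamine genes, without OAZ1. For chloroquine against vehicle, 7584 of the 19514 genes tested passed with the block in all libraries, against 7682 without it. Across all 12 libraries numbered 1 to 3, 6 correlated best with their own number. Of 92 called values of the further pathway genes, none reversed under 1933 alternatives, and 134 of those lost the call. SMOX, at 62 to 252 counts, had the widest SE of the 9 genes.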
